A study of Mus musculus with 8 samples.

Results

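The genes described here are 10 markers of supporting cells of the organ of Corti, *Sox2*, *Prox1*, *Jag1*, *Lfng*, *Hey2*, *Fgfr3*, *Lgr5*, *Gfap*, *S100b* and *Slc1a3*. They were taken by symbol from the count tables, where each has 1 entry among the 47628 entries that name a gene. All 10 had enough reads to be tested, among 19366 genes tested. RNA seq had been performed on whole cochleae of 8 animals, 4 of each genotype, called here by their labels. The WT mice were WT_4, WT_5, WT_6 and WT_8, and the Opa1+/- mice Het_2, Het_7, Het_484 and Het_491. The Opa1+/- mice are heterozygous for a knock-in deletion of the bases TTAG in *Opa1*, which encodes a GTPase of the inner mitochondrial membrane, and the WT mice are their littermates. Both genotypes share a mixed C57BL/6 J and 129 Sv/Pas background, an age of 21 days and the lack of any treatment. The deletion is carried by every cell of the animal, so that no measurement here isolates its action in supporting cells.

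Supporting cells surround the hair cells of the organ of Corti and comprise, among others, pillar cells, Deiters' cells and the cells bordering the inner hair cells. They hold the sensory cells in place, take up potassium and glutamate released around them, and share several markers with glia. Their identity is set up in the embryo by transcription factors of the SOX and PROX families, by Notch signalling from cell to cell, in which a ligand on a neighbouring cell releases the Notch intracellular domain to act with RBPJ on target genes, and by FGF and Wnt signals. None of the 10 genes is restricted to supporting cells in a whole cochlea. *Gfap*, *S100b* and *Slc1a3* are also glial genes, *Prox1* is a gene of lymphatic endothelium and *Jag1* and *Hey2* are active in blood vessels. In such bulk samples, fewer cells of a type and less RNA per cell cannot be told apart.

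The table of RefSeq starts used here (GRCm38.p6) held 9 of the genes, all but *Lgr5*, and the DNA before these starts was of 2 kinds. The 250 bases before the start of *S100b*, *Gfap* and *Slc1a3* each held 2 CpG dinucleotides, whereas those of *Lfng* (18), *Fgfr3* (19), *Prox1* (20), *Jag1* (20), *Hey2* (22) and *Sox2* (27) held many. The median over 12113 tested genes with such a window was 15, with up to 2 CpG in 7.76% of them and at least 18 in 39.6%. The windows of the 3 CpG-poor genes and of the 2 richest are shown 5′ to 3′ on the strand of the gene, ending at the base before the start, with each CpG in capitals. *S100b* lies at chr10:76253586-76253835 (plus strand), *Gfap* at chr11:102897201-102897450 (minus), *Slc1a3* at chr15:8710808-8711057 (minus), *Sox2* at chr3:34649745-34649994 (plus) and *Hey2* at chr10:30842784-30843033 (minus).
S100b: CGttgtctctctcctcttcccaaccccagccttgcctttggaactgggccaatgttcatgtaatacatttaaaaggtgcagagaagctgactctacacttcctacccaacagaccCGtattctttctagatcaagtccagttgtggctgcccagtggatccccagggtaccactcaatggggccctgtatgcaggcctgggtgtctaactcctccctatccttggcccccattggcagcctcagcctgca
Gfap: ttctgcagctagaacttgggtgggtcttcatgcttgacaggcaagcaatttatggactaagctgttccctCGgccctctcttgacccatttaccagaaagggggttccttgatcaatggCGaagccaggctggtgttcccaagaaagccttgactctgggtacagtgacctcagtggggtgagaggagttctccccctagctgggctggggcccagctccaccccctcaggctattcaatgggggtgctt
Slc1a3: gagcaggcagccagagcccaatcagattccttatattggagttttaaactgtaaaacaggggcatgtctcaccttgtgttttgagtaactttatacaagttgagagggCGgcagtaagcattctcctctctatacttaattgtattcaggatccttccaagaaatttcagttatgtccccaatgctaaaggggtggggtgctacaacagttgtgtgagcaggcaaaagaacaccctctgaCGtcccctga
Sox2: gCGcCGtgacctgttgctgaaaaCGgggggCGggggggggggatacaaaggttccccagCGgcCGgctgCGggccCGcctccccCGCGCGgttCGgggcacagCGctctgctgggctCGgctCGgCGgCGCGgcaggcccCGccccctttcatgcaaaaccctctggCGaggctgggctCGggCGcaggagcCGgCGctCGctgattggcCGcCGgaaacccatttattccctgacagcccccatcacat
Hey2: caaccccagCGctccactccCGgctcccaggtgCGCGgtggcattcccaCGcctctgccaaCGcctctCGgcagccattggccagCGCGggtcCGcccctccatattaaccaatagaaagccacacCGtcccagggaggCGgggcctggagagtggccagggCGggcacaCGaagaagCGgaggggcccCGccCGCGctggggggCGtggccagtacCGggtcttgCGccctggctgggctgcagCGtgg

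GC content followed the same division, from 44.8% in *Slc1a3* to 55.6% in *Gfap* among the 3 CpG-poor windows and from 57.2% in *Jag1* to 72.0% in *Sox2* among the 6 others. The *Gfap* window lies inside the GENCODE gene, which starts further upstream in a longer transcript. The last 124 bases of the *Jag1* window, 50 of *Fgfr3*, 21 of *Lfng* and 18 of *Hey2* also lie inside their GENCODE genes, and the windows of *Sox2*, *Prox1*, *S100b* and *Slc1a3* outside. The motif TGGGAA, the core bound by the Notch effector RBPJ, was searched on both strands and was present in 4 of the 9 windows (*Lfng*, *Hey2*, *Gfap* and *S100b*), against 20.6% of the windows of all tested genes. *Lfng* held it at -135 and -108, *Hey2* at -207, *Gfap* at -115 and *S100b* at -234, counted back from the start. The match at -108 in *Lfng* reads TGGGAA on the strand of the gene, and the 4 others are on the opposite strand. The motif TATAAA, also searched on both strands, was present in the windows of *Prox1* (-34) and *Slc1a3* (-161), both times on the strand opposite to the gene, against 7.03% of all windows. A match of letters is not evidence of binding.

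Depth was 15978051 to 20828030 counts on named genes per mouse, and no pair of libraries was so alike as to be the same library. The transcript of *Opa1* itself was at 111.7 to 125.9 CPM, the count relative to the library size after TMM scaling, in WT and 60.4 to 70.0 in Opa1+/- mice, a log2 fold change of -0.87 ± 0.0677 (SE, adjusted p = 0.00515, edgeR, quasi-likelihood F test, Benjamini-Hochberg), so the libraries followed their labels. The study's methods give TRI Reagent for the extraction of the cochleae, and the labels give TRI Reagent or a microkit, with no sample named. The WT and Opa1+/- libraries carry consecutive numbers by genotype, so an effect of library order cannot be told apart from that of genotype. The samples carry separate animal numbers.

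The plot of the genes by mouse and the sentences that follow give every value. Among the transcription factors, *Sox2*, needed to form the sensory and supporting cells, was at 11.0, 13.9, 13.4 and 17.0 CPM in WT_4, WT_5, WT_6 and WT_8, and at 13.3, 12.1, 11.6 and 15.2 CPM in Het_2, Het_7, Het_484 and Het_491. The mice keep this order in all lists of values. Its lowest and highest values were both in WT mice, so the genotypes overlapped (13.8 ± 2.48 against 13.0 ± 1.61 CPM, SD, n = 4 each). The fitted log2 fold change was -0.086 ± 0.141 (SE, adjusted p = 0.927, edgeR), with a 95% interval from 24.4% lower to 17.4% higher. It was -0.18 without WT_4 and 0.026 without WT_8. *Prox1*, a homeobox gene of pillar and Deiters' cells, was at 16.7, 19.6, 17.1 and 17.0 CPM in WT mice and 15.8, 16.2, 16.2 and 18.1 CPM in Opa1+/- mice. WT_5 stood above the others, whose values overlapped between genotypes (17.6 ± 1.34 against 16.6 ± 1.04 CPM, log2 fold change -0.086 ± 0.0816, SE, adjusted p = 0.857, edgeR), and without that mouse the log2 fold change was -0.029.

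**Figure D1:**
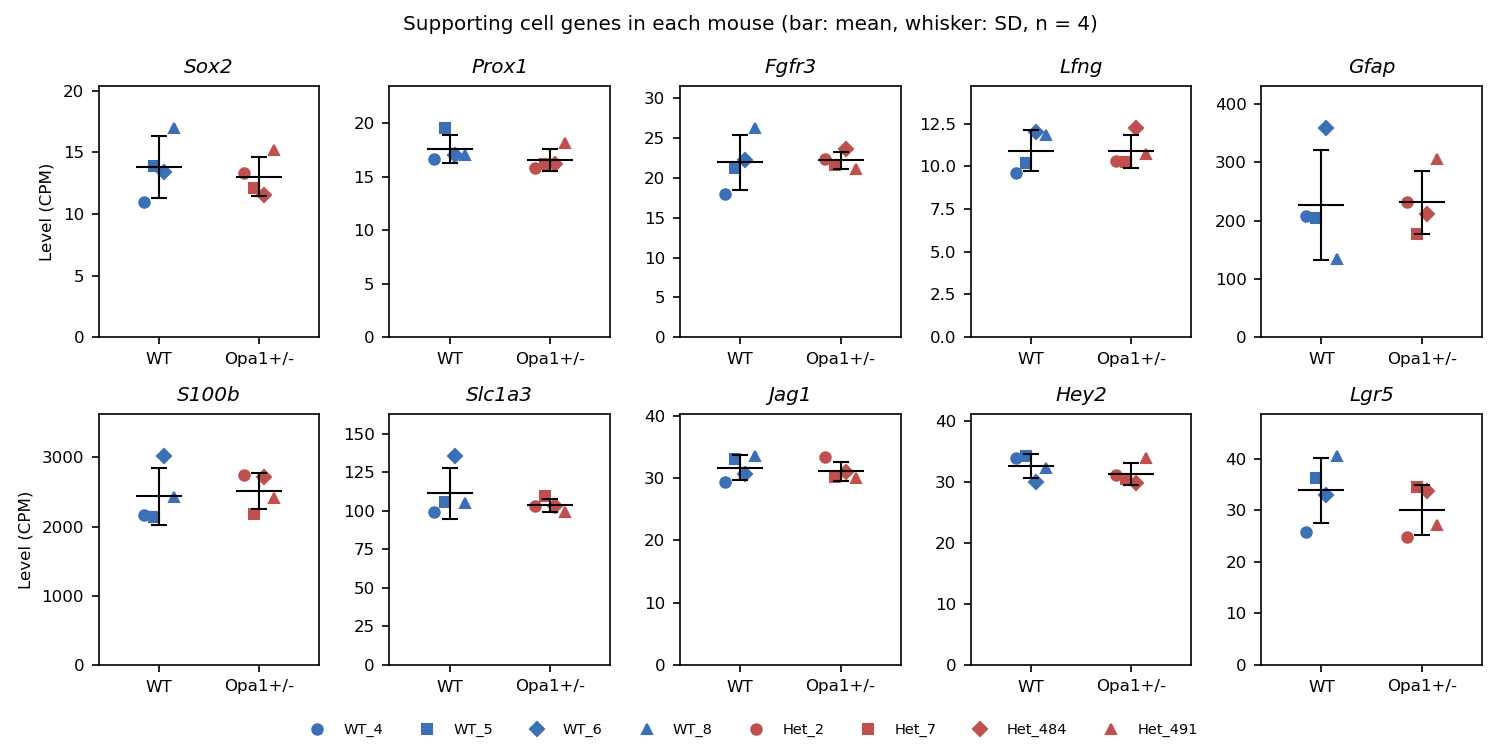
Levels of the 10 supporting cell genes in CPM (y axis, 1 panel per gene, each starting at 0) in 4 WT mice (blue) and 4 Opa1+/- mice (red), a symbol for each mouse, with bars at the mean and whiskers at 1 SD (n = 4). In all 10 panels the WT and Opa1+/- mice overlap, and the spread is widest for *Gfap*, from 134.7 to 359.5 CPM among WT mice.

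The 3 genes of the Notch pathway varied less between mice than most. *Jag1*, a Notch ligand of supporting cells, was at 29.4, 33.0, 30.6 and 33.6 CPM in WT mice and 33.3, 30.1, 30.9 and 30.1 CPM in Opa1+/- mice. These values had the narrowest range of the 10 genes, the highest being 1.14 times the lowest over the 8 mice, and overlapped between the genotypes. *Lfng*, a glycosyltransferase that alters the response of Notch receptors to their ligands, was at 9.59, 10.2, 12.0 and 11.8 CPM in WT mice and 10.3, 10.2, 12.3 and 10.7 CPM in Opa1+/- mice. The means were 10.9 ± 1.20 and 10.9 ± 0.947 CPM (SD, n = 4 each), and the values interleaved. *Hey2*, a transcriptional repressor that Notch can induce, was at 34.0, 34.3, 29.9 and 32.3 CPM in WT mice and 31.1, 30.4, 29.8 and 33.8 CPM in Opa1+/- mice. The lowest value of each genotype was near 30 CPM (29.9 and 29.8), and the ranges overlapped almost fully. The fitted log2 fold changes were -0.026 ± 0.0646 for *Jag1*, -0.0060 ± 0.109 for *Lfng* and -0.061 ± 0.0660 for *Hey2* (SE, adjusted p = 0.951, 0.994 and 0.881, edgeR). The 95% intervals were 11.2% lower to 8.58% higher for *Jag1*, 15.9% lower to 18.0% higher for *Lfng* and 13.5% lower to 6.25% higher for *Hey2*. With single mice left out the log2 fold changes ranged from -0.059 (WT_4) to 1.62e-05 (WT_8) for *Jag1*, from -0.064 (Het_484) to 0.042 (WT_6) for *Lfng* and from -0.10 (Het_491) to -0.034 (Het_484) for *Hey2*.

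*Fgfr3*, the FGF receptor of pillar and Deiters' cells, was at 17.9, 21.3, 22.3 and 26.3 CPM in WT mice and 22.4, 21.6, 23.6 and 21.1 CPM in Opa1+/- mice. All 4 Opa1+/- values lay within the range of the WT mice, and the log2 fold change was 0.015 ± 0.108 (SE, adjusted p = 0.983, edgeR), ranging from -0.070 without WT_4 to 0.11 without WT_8. *Lgr5*, an R-spondin receptor that amplifies Wnt signals, was at 25.7, 36.3, 32.9 and 40.6 CPM in WT mice and 24.8, 34.6, 33.9 and 27.2 CPM in Opa1+/- mice. WT_4, Het_2 and Het_491 were the low ones and WT_8 the high one, so that each genotype had low mice. Its log2 fold change of -0.17 ± 0.151 (SE, adjusted p = 0.843, edgeR), with means of 33.9 ± 6.29 and 30.1 ± 4.85 CPM, was the largest in size of the 10. Leaving out WT_4 gave -0.28 (unadjusted p = 0.0626, adjusted p = 0.504, edgeR), leaving out WT_8 gave -0.075 and leaving out Het_2 gave -0.086.

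The glial-like genes were the most abundant. *Gfap*, an intermediate filament protein, was at 208.6, 205.0, 359.5 and 134.7 CPM in WT mice and 232.2, 177.8, 211.1 and 305.5 CPM in Opa1+/- mice. WT_6 and Het_491 were the high ones and WT_8 the low one, and the means were 227.0 ± 94.7 and 231.6 ± 54.1 CPM (SD, n = 4 each). The log2 fold change was 0.030 ± 0.272 (SE, adjusted p = 0.987, edgeR), and its 95% interval was the widest of the 10, from 33.1% lower to 55.8% higher. Leaving out WT_6 gave 0.34, and leaving out WT_8 gave -0.16. *S100b*, a small calcium-binding protein of glia and supporting cells, was at 2174, 2136, 3027 and 2425 CPM in WT mice and 2742, 2186, 2712 and 2408 CPM in Opa1+/- mice. The highest was WT_6 and the lowest WT_5, with the Opa1+/- mice between them, and the log2 fold change was 0.042 ± 0.123 (SE, adjusted p = 0.960, edgeR). With single mice left out it ranged from -0.017 (WT_5) to 0.16 (WT_6). *Slc1a3*, the glutamate transporter GLAST, was at 99.3, 105.6, 135.9 and 105.2 CPM in WT mice and 102.9, 109.4, 103.0 and 99.2 CPM in Opa1+/- mice. Apart from WT_6 at 135.9, these were within 99.2 to 109.4 CPM, and the log2 fold change was -0.11 ± 0.0974 (SE, adjusted p = 0.851, edgeR), or 0.0043 without WT_6.

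**Figure D2:**
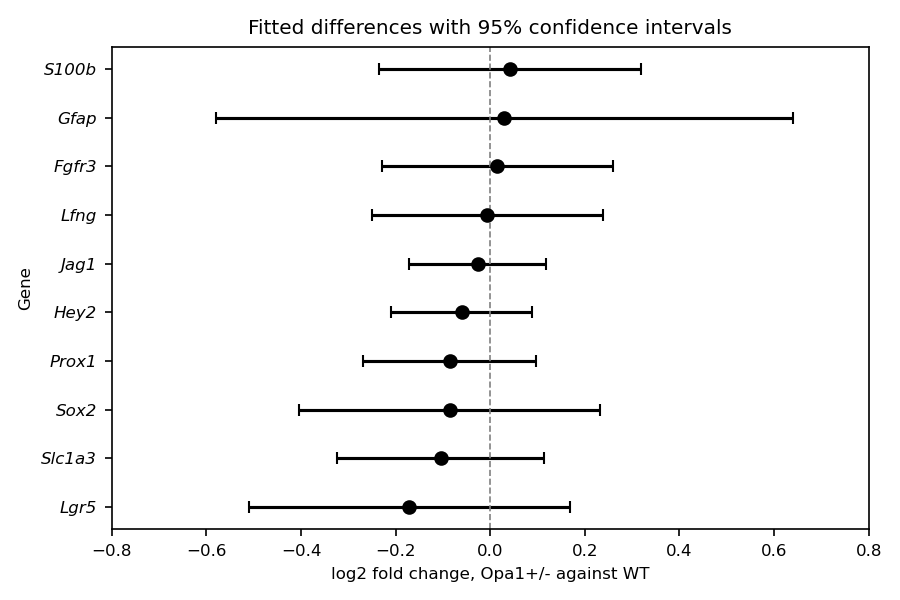
Fitted log2 fold changes of Opa1+/- against WT mice (x axis, points) with their 95% confidence intervals (bars) for the 10 genes (y axis), from edgeR's quasi-likelihood fit. Every interval includes 0, from the narrowest, of *Jag1* (11.2% lower to 8.58% higher), to the widest, of *Gfap* (33.1% lower to 55.8% higher).

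Of the 10 genes, 0 passed the adjusted threshold (0.05) by edgeR, against 0.0258% of all 19366 genes tested (0.0207% higher and 0.00516% lower in Opa1+/- mice), and 0 reached an unadjusted p under 0.05, against 6.72% (3.51% higher and 3.22% lower). DESeq2 and limma voom also gave 0 of both. In 0 of the 10 did the genotypes fail to overlap, against 4.31% of all genes (1.98% with the Opa1+/- mice above and 2.33% with them below). The median log2 fold change was -0.043, with 7 of the 10 below 0 and 3 above, beside a median of 3.95e-04 over all genes tested. Sizes were small, with a median of 0.051 beside 0.099 over all genes, and 28.2% of the tested genes had a fold change at least as large as that of *Lgr5*.

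The spread between mice of a genotype exceeded counting error in all 10 genes. With 168 (*Lfng*) to 50665 (*S100b*) counts per gene and mouse, counting alone would give a coefficient of variation of 7.15% for *Lfng*, 1.57% for *Gfap* and 0.476% for *S100b*. The spread measured within genotypes was 9.93% for *Lfng*, 33.6% for *Gfap* and 14.0% for *S100b*. For *Jag1* the values were 4.21% by counting and 5.64% measured, and for *Prox1* 5.70% and 7.02%, so that these were close to counting error. Between the highest and the lowest of the 8 mice, the ratio was 2.67 for *Gfap*, 1.64 for *Lgr5*, 1.55 for *Sox2* and 1.47 for *Fgfr3*, and 1.15 to 1.42 for the 5 others besides *Jag1*.

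Levels of different genes were compared per kilobase of merged exons (GENCODE vM21, GRCm38). *S100b* was by far the first, at a mean of 1669 CPM per kilobase (1440 to 2040 over the 8 mice), at rank 27 of the 19366 tested genes by CPM, and gave 83.3% of the summed CPM of the 10 genes. *Gfap* followed at 54.4 (31.9 to 85.2) and *Slc1a3* at 12.6 (11.6 to 15.9). The 6 CpG-rich genes and *Lgr5* came below these, at 6.96 for *Hey2* (6.48 to 7.46), 6.53 for *Sox2* (5.33 to 8.26), 5.38 for *Jag1* (5.04 to 5.76), 4.35 for *Lfng* (3.83 to 4.89), 3.12 for *Lgr5* (2.42 to 3.96), 3.08 for *Fgfr3* (2.50 to 3.67) and 2.04 for *Prox1* (1.88 to 2.33). *Hey2* and *Sox2*, *Sox2* and *Jag1*, *Lfng* and *Lgr5*, and *Lgr5* and *Fgfr3* overlapped in range and are not separated, while the other neighbours were apart. With the length of the longest transcript in place of merged exons, 5 of the positions moved, and the levels of 5 genes were over 1.5 times higher, at 86.6 CPM per kilobase for *Gfap*, 24.3 for *Slc1a3*, 12.5 for *Hey2*, 6.68 for *Lgr5* and 5.20 for *Fgfr3*. *S100b*, *Gfap*, *Slc1a3* and *Hey2* then stood apart from each other and from the rest, *Prox1* stayed lowest, and the 5 genes between *Hey2* and *Prox1* overlapped with their neighbours.

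**Figure D3:**
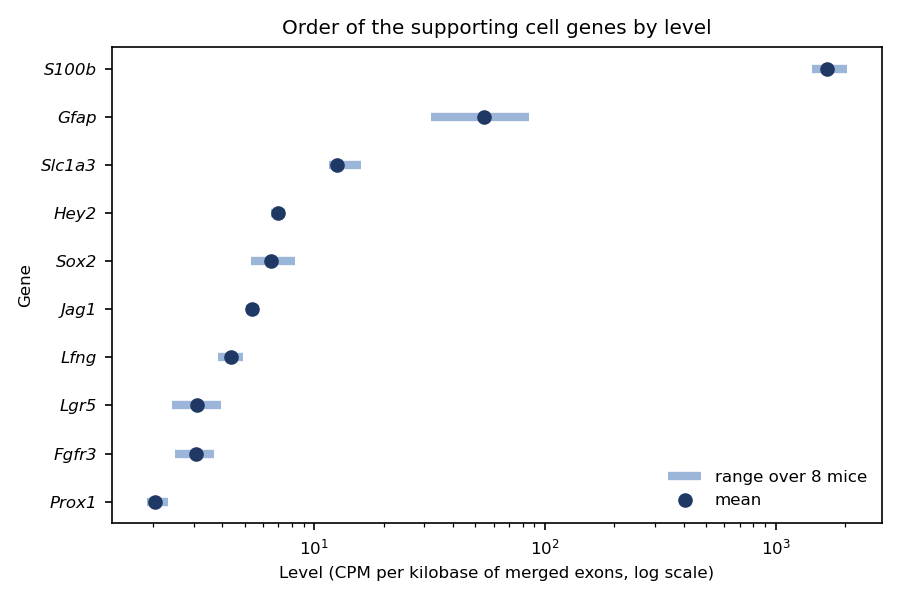
Mean level of each gene (x axis, CPM per kilobase of merged exons, log scale) with a bar for the range over 8 mice, genes on the y axis in order of level. *S100b*, *Gfap* and *Slc1a3* lie above the other 7 genes, which span 1.88 to 8.26 CPM per kilobase.

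The 3 genes with CpG-poor windows were thus the 3 most abundant per kilobase. Over all tested genes with a window the order was the other way, with a median of 1.85 CPM per kilobase for 936 genes with up to 2 CpG and of 5.38 for 4789 genes with at least 18. The level of *Slc1a3* was reached by 12.9% of the former and 22.2% of the latter. The comparison is a description of these 9 genes.

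**Figure D4:**
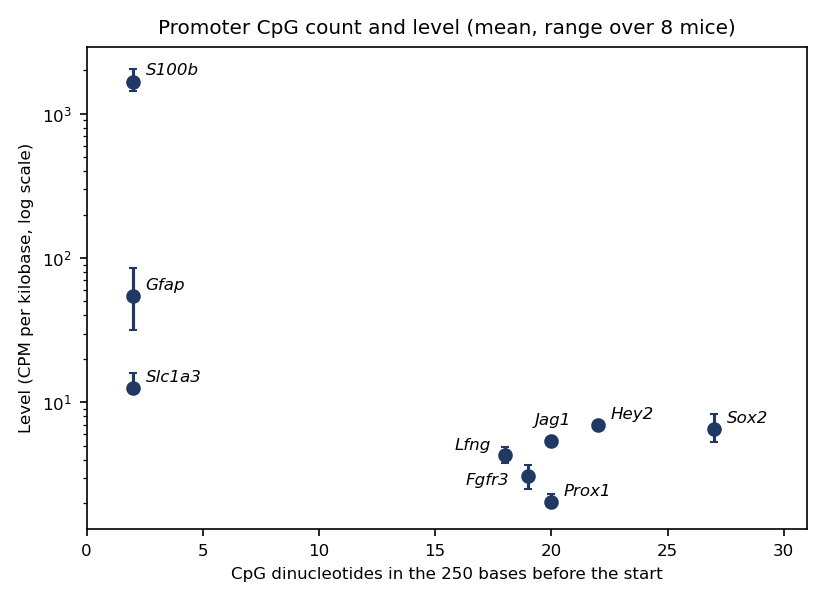
CpG dinucleotides in the 250 bases before the start (x axis) against the mean level (y axis, CPM per kilobase, log scale, whiskers at the range over 8 mice) of the 9 genes with a RefSeq window. *S100b*, *Gfap* and *Slc1a3*, with 2 CpG each, are above the 6 genes with 18 to 27.

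Levels moved partly with the mouse rather than the genotype. WT_4 was below the mean of the 8 mice in 9 of the 10 genes (median log2 deviation -0.14) and was lowest in *Sox2*, *Fgfr3*, *Lfng* and *Jag1*. WT_6 was highest in *Gfap*, *S100b* and *Slc1a3*, and WT_8 in *Sox2*, *Fgfr3*, *Jag1* and *Lgr5*. Of the 10 highest values, 9 were in WT mice, and Het_484 had that of *Lfng*. WT mice also had 6 of the 10 lowest values. WT_4 also had the lowest summed level of the hair cell markers (110 CPM against 132 to 176 in the 7 others) and of 19 other supporting cell genes (1662 against 1850 to 2272). Its neutrophil markers summed to 1512 CPM, where the other WT mice had 470 to 571 and Opa1+/- mice 488 to 1227, and its erythroid markers to 21478, against 7752 to 12337 and 15079 to 25068. The part of blood cells in its lower values was not tested.

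**Figure D5:**
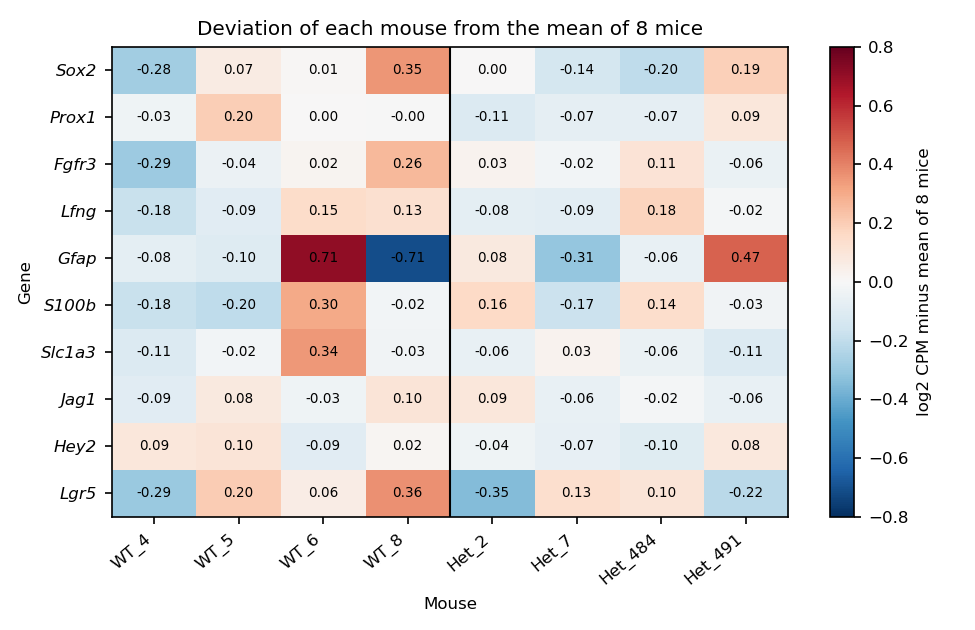
Log2 deviation of each gene from its mean over the 8 mice, 1 column per mouse and 1 row per gene. WT_4 is below 0 in 9 of the 10 genes, and no genotype is on 1 side throughout.

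Markers of other cells that share these genes were summed in each mouse. For *Jag1* and *Hey2*, 13 blood endothelial markers summed to 397 to 450 CPM in WT and 401 to 462 CPM in Opa1+/- mice, and 7 mural cell markers to 694 to 1177 and 553 to 1468 CPM. For *Prox1*, 6 lymphatic markers summed to 110.2 to 130.7 and 122.9 to 126.1 CPM. All 3 sums overlapped between genotypes, with 0 genes at an adjusted p under 0.05 by edgeR, against 0.0258% of all genes tested. At an unadjusted p under 0.05 were 1 endothelial, 1 mural and 0 lymphatic genes, against 6.72% of all genes tested. *Gfap* is also made by astrocytes of the brainstem end of the auditory nerve. The summed level of 9 other astrocyte markers was 866, 889, 1237 and 1105 CPM in WT mice and 943, 990, 1016 and 1153 CPM in Opa1+/- mice, highest in WT_6 and Het_491, which were also highest in *Gfap*. WT_8, next highest in this sum at 1105 CPM, was the lowest of all in *Gfap*. Oligodendrocyte markers summed to 191, 207, 294 and 157 CPM and to 309, 205, 189 and 274 CPM. This sum was lowest in WT_8, as *Gfap* was, and highest in Het_2, followed by WT_6 and Het_491. For *S100b*, the 13 Schwann cell markers summed to 3897, 3254, 3571 and 2969 CPM in WT mice and to 4363, 3441, 3747 and 3777 CPM in Opa1+/- mice, overlapping between genotypes. WT_4 was second highest in this sum and among the low mice in *S100b*. Among the Opa1+/- mice, Het_2 was highest and Het_7 lowest in both. Likeness of *S100b* with this sum was not measured. All 13 Schwann cell markers had a log2 fold change above 0 (median 0.18), beside 50.1% of all genes tested. Markers measured in the same mice are not separate observations. By edgeR 0 had an adjusted p and 1 an unadjusted p under 0.05, against 0.0258% and 6.72% of all genes tested. The part of these cells in the levels of the 5 genes was not tested.

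Likeness between genes was measured as Pearson's r of log2 CPM after removing the genotype means, over 8 mice, as a description. The genes of a mouse share its library and scaling, so that r also carries what these have in common. Of 45 pairs, 11 had r above 0.5, and 1 of these kept such an r both without the 2 mice farthest from the median of the one gene and without those of the other. This was *Fgfr3* with *Lfng* (r = 0.78, rho = 0.76), at 0.77 without the 2 mice farthest in *Fgfr3* and 0.92 without those in *Lfng*. *Fgfr3* with *Lgr5* (0.73) was at 0.17 and 0.63 without the 2 mice farthest in the first and in the second gene, *Lfng* with *S100b* (0.71) at 0.43 and 0.61, and *Fgfr3* with *Jag1* (0.68) at 0.13 and 0.59. *S100b* with *Slc1a3* (0.67) was at 0.80 and -0.16, *Sox2* with *Fgfr3* (0.66) at -0.72 both times, and *Prox1* with *Hey2* (0.62) at -0.74 and 0.47. With TMM scaling the values of these 6 pairs thus depended on which mice were included. In the opposite direction, 3 pairs had r under -0.5, each with *Hey2*. *Slc1a3* with *Hey2* (r = -0.78, rho = -0.69) was at -0.60 and -0.70 without the 2 mice farthest in the first and in the second gene, *S100b* with *Hey2* (-0.69) at -0.77 and -0.57, and *Lfng* with *Hey2* (-0.65) at -0.23 and -0.71. With levels scaled by total counts alone, 11 pairs had r above 0.5, of which 4 kept it (*Fgfr3* with *Lfng*, *Jag1* and *S100b*, and *Lfng* with *S100b*), and 6 had r under -0.5, of which 2 kept it (*Slc1a3* with *Hey2* and *Gfap* with *Lgr5*). Under both scalings the pairs that kept such an r were *Fgfr3* with *Lfng* and *Slc1a3* with *Hey2*.

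Among 204 genes of the marker and pathway lists, the most alike were *Tnfrsf19* for *Slc1a3* (r = 0.96), *Agt* for *Gfap* (0.95), *Fst* for *Lgr5* (0.92), *Jag1*'s *Lgr6* (0.91), *Bsnd* for *Lfng* (0.90), *Dusp6* for *Fgfr3* (0.89), *Fgf10* for *Sox2* (0.87), *Rspo1* for *S100b* (0.85), *Rbfox3* for *Hey2* (0.81) and *Ermn* for *Prox1* (0.66). Each r is the highest of 204 candidates over 8 mice, so part of its size comes from that choice. Without the 2 mice farthest in the supporting cell gene, r was 0.92 for *Fst*, 0.47 for *Dusp6* and 0.31 for *Ermn*, and 0.56 to 0.88 for the 7 others. The mice farthest in the other gene of a pair were not left out here. When levels were scaled by total counts alone, other genes took the place of *Ermn*, *Bsnd*, *Lgr6* and *Rbfox3*.

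The other genes of the same pathways were looked at as 4 lists with 81 genes, of which 77 were tested. By edgeR 0 passed the adjusted threshold, as by DESeq2 and voom (0 each), against 0.0258% of all genes, and 6 (7.79%) had an unadjusted p under 0.05, all of them lower in Opa1+/- mice, against 6.72% of all genes in either direction and 3.22% lower. The genotypes did not overlap in 4 of the 77 (5.19%), each time with the Opa1+/- mice below, against 4.31% of all genes in either direction and 2.33% with Opa1+/- mice below. Both shares are near the background in either direction and above that for lower values alone. These counts moved between 0 and 4 per list when mice were left out, and no test of the lists was made.

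Among 24 other Notch genes, 23 were tested (*Hes5* was under the minimum), with 12 log2 fold changes above 0 and 11 below and a median of 0.0089. *Rbpj*, the DNA-binding partner of the Notch intracellular domain, was at 47.9, 49.7, 51.4 and 53.4 CPM in WT mice and 44.5, 45.2, 41.2 and 41.4 CPM in Opa1+/- mice. The genotypes did not overlap, but the log2 fold change of -0.23 ± 0.0575 (SE, unadjusted p = 0.00259, adjusted p = 0.722, edgeR) did not pass. *Hes1*, a Notch target, had a log2 fold change of 0.27 ± 0.134 (SE, unadjusted p = 0.0773, adjusted p = 0.758, edgeR). *Rbpj* was the only gene of this list at an unadjusted p under 0.05.

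All 17 genes of the Wnt and LGR list were tested, and their median log2 fold change was -0.077, with 5 above 0 and 12 below. *Lgr4*, a receptor related to LGR5, was at 35.5, 35.3, 37.1 and 38.7 CPM in WT mice and 34.9, 30.4, 32.6 and 33.2 CPM in Opa1+/- mice, without overlap (log2 fold change -0.16 ± 0.0602, SE, unadjusted p = 0.0233, adjusted p = 0.722, edgeR). *Lrp6*, a Wnt coreceptor, had -0.18 ± 0.0950 (SE, unadjusted p = 0.0955, edgeR). In the FGF list, 18 of 21 genes were tested (*Fgf3*, *Fgf8* and *Fgf20* were under the minimum), with a median of -0.089, 8 above 0 and 10 below. The 3 at an unadjusted p under 0.05 were *Spred2* and *Spred1*, inhibitors of the pathway downstream of the receptors, and *Frs2*, an adaptor of the receptors. Their log2 fold changes were -0.16 ± 0.0571, -0.17 ± 0.0708 and -0.15 ± 0.0611 (SE, unadjusted p = 0.0171, 0.0358 and 0.0396, adjusted p = 0.722, 0.728 and 0.728, edgeR). *Frs2* lies outside the rule for naming list genes and was named after its values were seen. In *Spred2* and *Frs2* the genotypes did not overlap.

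Of 19 other supporting cell genes, all tested, 6 had a log2 fold change above 0 and 13 below (median -0.045). *Ceacam16*, a component of the tectorial membrane secreted by supporting cells, had 0.40 ± 0.207 (SE, unadjusted p = 0.0862, adjusted p = 0.760, edgeR). The summed level of the 19 was 1662 to 2272 CPM in WT and 1850 to 2067 CPM in Opa1+/- mice. Hair cell markers summed to 110 to 176 and 132 to 158 CPM.

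By position, the 10 genes lie on 7 chromosomes of GRCm38. *Sox2* (chromosome 3, 34650405 to 34652461, plus strand) is a single exon within the intron of *Sox2ot* on the same strand. The exons of *Sox2ot* do not touch it, and *Sox2ot* itself had 207 to 265 counts per mouse. Of the exon bases of *Fgfr3* (chromosome 5, 33721674 to 33737068), 13.9% are overlapped on the opposite strand by *G630022F23Rik* (0 to 5 counts per mouse), and of those of *Prox1* (chromosome 1, 190118035 to 190170714) 1.6% by *Prox1os* (5 to 14 counts). Reads of overlapping exons cannot be told apart without strand, and these neighbours had few reads. *S100b* (76253853 to 76261159), *Hey2* (30832359 to 30842801) and *Lgr5* (115450311 to 115587780) are all on chromosome 10. *Lfng* is on chromosome 5 (140607320 to 140615545), *Gfap* on chromosome 11 (102887336 to 102900912), *Slc1a3* on chromosome 15 (8634124 to 8710764) and *Jag1* on chromosome 2 (137081456 to 137116644). *S100b* shares no exon base with *Dip2a* on the opposite strand.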

How the data were processed

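RNA seq counts of 8 cochlear samples (4 WT, 4 Opa1+/-), grouped by their labels, were analysed. The authors deposited 1 table of raw counts per mouse, whole numbers per gene symbol without normalization. Libraries were CORALL with paired reads of 80 nucleotides, and the submitters' processing notes name STAR and GRCm38. The counting program and use of strand are not given in the sources used here. Entries named only by a number (15, with 0.112 to 0.124% of counts) were left out.

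Library sizes were the counts on all 47628 named entries, scaled by TMM factors (0.948 to 1.06). Genes with a mean DESeq2-normalized count over 10 were tested, 19366 in all, with edgeR 4.0.16 (quasi-likelihood, not robust) and Benjamini-Hochberg adjustment at 0.05. The SE is the size of the log2 fold change over the root of F, and intervals are 95% (t with 9.48 degrees of freedom). Counts and Poisson errors cover counting error only. The genes and lists were chosen with earlier results of these data known. Named besides the 10 genes and *Opa1* are the 2 genes of lowest p in each pathway list, and the gene most alike to each of the 10. A gene that this rule names is not reported here. No marker list was read gene by gene. Positions are from GENCODE vM21 and start windows from RefSeq GRCm38.p6. Protein sequences were not used here.

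Alternatives were DESeq2 1.42.0, limma 3.58.1 voom, robust estimation, other scalings and filters, and each mouse or some mice left out. The test was checked on simulated data. Software was R 4.3.3, with Python 3.11.15 for summaries and matplotlib 3.10.9 for figures.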

Additional observations from a re-analysis of the deposited data

Results flagged for a closer look

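With 4 mice per group, Dixon's criterion marked 5 values among 62 groups of values examined, where chance marks about 1 in 20 groups. *Prox1* was at 19.58 CPM in WT_5, apart from 16.67 to 17.09 CPM in the 3 other WT mice. The Wnt and LGR list summed to 791.2 CPM in Het_491, below 882.3 to 886.5 CPM in the other Opa1+/- mice. The FGF list summed to 1073 CPM in Het_7, above 977.6 to 984.4 CPM in the others. Muscle markers summed to 2080 CPM in WT_6, while the other WT mice had 214.6 to 504.4 CPM. That mouse was also highest in *Gfap*, *S100b* and *Slc1a3*, and the part of muscle RNA in these levels was not tested. Neutrophil markers summed to 1512 CPM in WT_4, while the other WT mice had 470.2 to 570.9 CPM.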

How the results depend on the processing

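No supporting cell gene was called in any of 170 values (10 genes under 17 alternatives), by adjusted or unadjusted p. The sign of the fold change turned in 23 of these (*Gfap* 6, *Fgfr3* 5, *Lfng* 4, *S100b* 4, *Jag1* 2, *Sox2* 1, *Slc1a3* 1), and never for *Prox1*, *Hey2* or *Lgr5*. The median log2 fold change of the 10 was -0.072 with total counts, -0.087 without the 2 Opa1+/- mice with 3-digit numbers (Het_484 and Het_491), -0.14 without these and WT_4, and -0.096 to -0.019 with single mice left out. With total counts the median over all genes tested also fell, to -0.028 from 3.95e-04. The number of all genes called, 5, was 23 with DESeq2, 10 with voom, 10 with robust estimation, 12 with no filter, 0 without both 3-digit mice, 0 without these and WT_4, and 0 to 9 with single mice left out. Genes at an unadjusted p under 0.05 in the Notch list (1) were 4 with voom, 2 without both 3-digit mice, 2 also without WT_4, and 1 to 3 with single mice left out. In the Wnt and LGR list (1) they were 0 without both 3-digit mice and 0 to 3 with single mice left out. In the FGF list (3) they were 0 to 4, and in the other supporting cell list (1) 2 with no filter, 2 without WT_4 and both 3-digit mice, and 0 to 3 with single mice left out. *Opa1* missed the adjusted threshold at -0.86 (adjusted p = 0.260) without both 3-digit mice and at -0.87 (0.656) without these and WT_4, and ranged from -0.90 to -0.83 with single mice left out (adjusted p = 0.0704 at -0.85 without Het_2, edgeR). The cause was not tested. No paired analysis was made, since the mouse labels name no litter. The median r between pairs of the 10 genes, 0.164, was 0.304 with total counts alone. With 4 mice per genotype, the data do not exclude changes within the printed intervals.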

Other observations

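Markers of other cochlear tissues gave 0 genes at an adjusted p under 0.05 by edgeR, against 0.0258% of all genes tested. The 7 markers of the stria vascularis, which secretes endolymph, had 1 log2 fold change above 0 and 6 below (median -0.15), and summed to 311 to 619 CPM in WT and 384 to 535 CPM in Opa1+/- mice, lowest in WT_4. The 4 markers of fibrocytes of the lateral wall had 1 above 0 and 3 below (median -0.082) and summed to 2874 to 4135 and 2976 to 3916 CPM, also lowest in WT_4. All 10 tested erythroid genes had a log2 fold change above 0 (median 0.55), beside 50.1% of all genes tested. Of these, 0 had an unadjusted p under 0.05 by edgeR, against 6.72% of all genes tested, and the sums of 7752 to 21478 and 15079 to 25068 CPM overlapped. All 7 muscle genes had a log2 fold change below 0 (median -0.74), beside 49.9% of all genes tested. Their sums were 214.6 to 2080 CPM in WT and 14.6 to 1049 CPM in Opa1+/- mice, and overlapped. Markers of a list come from the same mice and are not separate observations.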
